A study of Mus musculus with 8 samples.

Results

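Creatine is made in a pair of enzymatic steps and then used as a store of high-energy phosphate. The genes described here are Gatm and Gamt, which encode the enzymes of those steps, Slc6a8, which encodes the creatine transporter of the plasma membrane, and Ckb and Ckmt1, which encode a cytosolic and a mitochondrial creatine kinase. They were chosen by name, 5 genes in all, and 4 of them are listed among the 11783 genes of the expression table. Ckmt1 is not listed in that table and is not analysed here. The 4 listed genes all passed the filter on low values, at least 1 FPKM in at least 4 libraries, which kept 10756 genes.

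Expression was measured by RNA-seq in granulosa cells, the somatic cells that surround the oocyte, isolated from the ovaries of C57BL/6 pups aged 4 days after birth (PND4, 4 libraries) or 1 day after birth (PND1, 4 libraries). No genotype or treatment other than age is named for either group. The study is framed around primordial follicle activation, the step at which resting follicles begin to grow. The labels do not give the animals or litters behind each library, or any pooling of animals, so the spread given here is that between libraries and may be technical. Values are FPKM, a level scaled to transcript length and to library depth, so that levels of different genes can be set side by side.

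Glycine amidinotransferase, the product of Gatm, works in mitochondria and moves an amidino group from arginine to glycine, which gives guanidinoacetate and ornithine. Guanidinoacetate methyltransferase, the product of Gamt, adds a methyl group from S-adenosylmethionine and so completes creatine. Kidney and liver are the best known sites of these steps, and many other tissues take creatine up from the blood through SLC6A8. Creatine kinases then move phosphate between ATP and creatine, and the cytosolic enzyme CKB is known in the rat uterus as a protein induced by oestrogen.

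The stretches before the annotated starts of Gatm, Gamt and Ckb are shown because these genes cover both steps of synthesis and the kinase, and because their levels lay far apart. The sequences are from RefSeq on GRCm38.p6, 250 bases that end just before the start site, read 5′ to 3′ on the gene's strand. Capitals mark CCAAT (the CCAAT box motif), TATAAA (the TATA box motif) and GGGCGG (the GC box motif) on either strand, and no matches overlapped. Entries were found for 4 of the 5 genes, Gatm, Gamt, Ckb and Ckmt1.
Gatm, chr2:122611278-122611527, minus strand: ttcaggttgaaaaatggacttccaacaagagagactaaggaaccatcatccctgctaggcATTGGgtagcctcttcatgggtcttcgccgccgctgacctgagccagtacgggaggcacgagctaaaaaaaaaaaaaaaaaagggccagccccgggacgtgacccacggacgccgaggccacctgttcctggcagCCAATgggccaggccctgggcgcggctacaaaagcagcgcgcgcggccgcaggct
Gamt, chr10:80261013-80261262, minus strand: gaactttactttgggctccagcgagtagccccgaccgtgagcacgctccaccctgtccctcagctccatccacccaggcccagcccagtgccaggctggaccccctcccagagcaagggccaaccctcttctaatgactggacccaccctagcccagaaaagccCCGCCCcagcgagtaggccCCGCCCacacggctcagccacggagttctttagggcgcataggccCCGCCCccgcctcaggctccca
Ckb, chr12:111672339-111672588, minus strand: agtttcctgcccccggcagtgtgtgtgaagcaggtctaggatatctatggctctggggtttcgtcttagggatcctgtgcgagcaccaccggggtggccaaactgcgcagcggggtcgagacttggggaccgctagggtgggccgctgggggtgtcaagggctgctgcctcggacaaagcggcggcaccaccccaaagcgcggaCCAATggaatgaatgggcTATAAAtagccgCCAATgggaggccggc
The Gatm stretch holds CCAAT from 55 to 51 bases before the start and its reverse complement, ATTGG, from 190 to 186 bases before it. GENCODE M21 sets the start of Gatm slightly further upstream, inside the printed stretch. The Gamt stretch holds GGGCGG on the opposite strand at 3 places, of which the nearest ends 17 bases before the start. The Ckb stretch holds CCAAT at 2 places and TATAAA from 28 to 23 bases before the start. Among 32536 distinct promoter stretches of this length in the same table, 33.8% hold CCAAT, 12.3% hold TATAAA and 33.0% hold GGGCGG on either strand. These matches describe letters and were not tested as sites.

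On GRCm38 the GENCODE M21 annotation places Gatm (ENSMUSG00000027199) on chromosome 2 from 122594467 to 122611303, and Gamt (ENSMUSG00000020150) on chromosome 10 from 80258151 to 80261012, both on the minus strand. Slc6a8 (ENSMUSG00000019558) lies on chromosome X from 73673150 to 73682502 on the plus strand, and Ckb (ENSMUSG00000001270) on the minus strand of chromosome 12 from 111669361 to 111672338. None of these 4 genes overlaps another annotated gene. The nearest neighbour of Gamt, Dazap1, an RNA-binding protein gene, lies 473 bases away on the opposite strand and stood between 25.3 and 44.5 FPKM over the 8 libraries. Ckmt1 (ENSMUSG00000000308) lies on chromosome 2 from 121357714 to 121363737 and overlaps Strc, which is not listed in the table either.

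Markers of granulosa cells were present in the libraries, beside markers of other cell types that are given further below. Among the latter, Krt19 of the surface epithelium list ran from 44.5 to 198 FPKM, and Tagln of the smooth muscle list from 348 to 813. Of 12 granulosa markers 11 were listed, and over the 8 libraries Foxl2, the transcription factor of ovarian somatic identity, ran from 10.5 to 26.2 FPKM, the KIT ligand gene Kitl from 62.8 to 90.8, the AMH receptor gene Amhr2 from 6.85 to 27.5, and the keratin gene Krt18 from 378 to 552. Krt18 was lowest of its age in PND4 replicate 1 (379 FPKM) and PND1 replicate 2 (378 FPKM). Krt19 was also lowest of its age in these libraries, at 69.5 and 44.5 FPKM. Which cells carried the Krt18 transcripts was not tested. Read depth is not given by the files, which limits what can be said of low values. PND4 replicate 1 listed 1097 genes at exactly 0 and PND1 replicate 1 listed 1234, against 222 to 858 in the other 6 libraries. In PND1 replicate 1 the zeros included Srp9, for a signal recognition particle protein, and Polb, for a DNA repair polymerase, which had at least 14.2 FPKM in each other library, so an exact 0 can be a failed estimate.

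The 4 listed genes kept one order of level in each library, the 0 of Gamt included: Gatm was the highest, then Ckb, then Slc6a8, then Gamt. The lowest Gatm value, 35.4 FPKM, was above the highest Ckb value, 23.0 FPKM, so these neighbours did not overlap. The ranges of Ckb, from 14.6 to 23.0 FPKM, and Slc6a8, from 8.20 to 16.7 FPKM, overlapped across libraries, although Ckb exceeded Slc6a8 in 8 of 8 libraries. Slc6a8 and Gamt also overlapped in range, Gamt reaching 10.1 FPKM, with Slc6a8 above Gamt in 8 of 8 libraries.

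Against the other listed genes of the same library, Gatm was among the abundant transcripts, between percentiles 85.8 and 94.3. Ckb lay between percentiles 67.1 and 78.5, and Slc6a8 between percentiles 50.4 and 67.8. Gamt reached percentile 53.4 at most. The enzyme gene of the first step therefore stood well above that of the second step per unit of transcript length. The ratio of Gatm to Gamt FPKM was 11.5, 12.3, 17.2 and 6.81 in PND4 replicates 1 to 4, and 18.9, 18.3 and 7.19 in PND1 replicates 2 to 4. It could not be formed in PND1 replicate 1, and the ages overlapped.

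**Figure D1:**
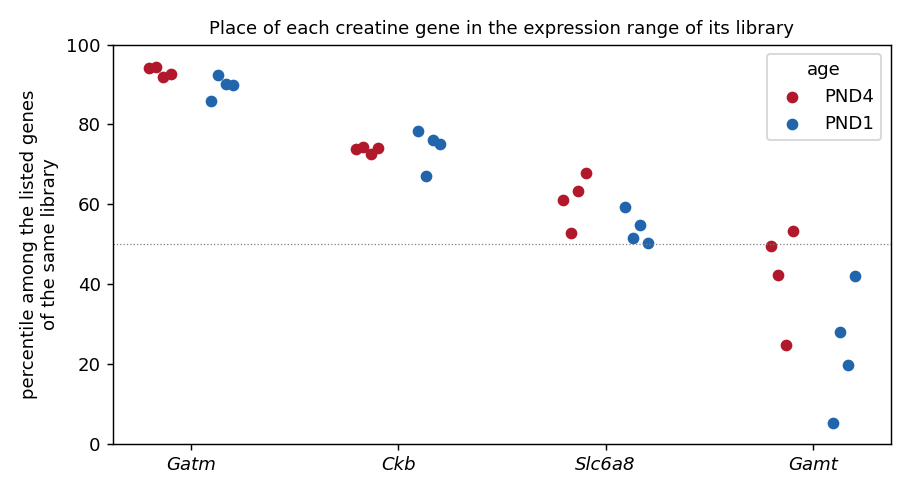
Percentile of each creatine gene among the 11783 listed genes of the same library (y axis), 1 point per library, PND4 (red) left of PND1 (blue) within each gene; the dotted line is the middle of the listed genes. Gatm lies at or above 85.8 in every library, and Gamt never passes percentile 53.4.

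The comparison of the ages asks how these genes stood while the first follicles were leaving the resting pool. The genes were proposed with earlier results of this same comparison known, the difference of Gatm among them, so the values that follow describe the libraries and carry no test. Of the 4 listed genes, Gatm was the 1 gene whose PND4 libraries all lay above its PND1 libraries, where 3.16% of the 10756 kept genes did so. In the limma comparison of all kept genes, 0 genes passed an adjusted p of 0.05 as higher at PND4 and 1 as lower, 0.0093% of those tested, and that gene is none of the creatine genes. In bulk RNA, fewer cells of a type and less RNA per cell cannot be told apart.

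Gatm, for the enzyme that forms guanidinoacetate, had 82.0, 84.0, 62.8 and 68.8 FPKM in PND4 replicates 1 to 4, and 35.4, 62.3, 50.5 and 49.4 FPKM in PND1 replicates 1 to 4. The lowest PND4 library and the highest PND1 library, 62.77 and 62.32 FPKM, nearly touched, and PND1 replicate 1 was the lowest of all. The means were 74.4 ± 10.3 FPKM at PND4 and 49.4 ± 11.04 at PND1 (SD, n = 4), 1.51 times as much at PND4. On the log2(FPKM + 1) scale, which understates folds of low genes, the difference PND4 minus PND1 was 0.60 (SE 0.18), and 7.08% of the other kept genes had a larger one.

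The separation of the ages in Gatm depended on how libraries were scaled. After median-of-ratios scaling, which sets the typical gene equal across libraries, Gatm stood at 89.4, 78.9, 59.3 and 63.8 in PND4 replicates 1 to 4, and at 39.7, 65.4, 49.3 and 47.7 in PND1 replicates 1 to 4. PND1 replicate 2 then lay above PND4 replicates 3 and 4, and 14 of 16 pairings of a PND4 with a PND1 library had the PND4 value above. The log2 difference was 0.52 on that scale, where 1.73% of kept genes had all PND4 libraries above all PND1 libraries. Without both libraries numbered 1, those with the most zeros, the difference was 0.40.

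Gamt, for the methyltransferase that completes creatine, had 7.14, 6.81, 3.66 and 10.1 FPKM in PND4 replicates 1 to 4. Among the PND1 libraries, replicate 1 lists it at 0, and replicates 2 to 4 had 3.30, 2.76 and 6.87 FPKM. The ages overlapped, since PND4 replicate 3 lay below PND1 replicate 4, and 14 of 16 pairings had the PND4 value above. The log2 difference was 1.17 (SE 0.56), but it was 0.59 without PND1 replicate 1, the library listed at 0. It also moved with the pseudocount, to 2.04 with 0.1 and 0.57 with 5.

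Slc6a8, for the transporter that imports creatine with sodium and chloride, had 10.95, 9.83, 13.9 and 16.7 FPKM in PND4 replicates 1 to 4, and 9.92, 8.20, 10.1 and 8.78 FPKM in PND1 replicates 1 to 4. The PND1 libraries lay close together, and PND4 replicates 3 and 4 stood apart above them, while PND4 replicate 2 fell among the PND1 values. The means were 12.8 ± 3.09 FPKM at PND4 and 9.25 ± 0.909 at PND1 (SD, n = 4). The log2 difference was 0.41 (SE 0.22), and 0.28 without PND4 replicate 4.

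Ckb, for the cytosolic creatine kinase, had 19.4, 21.8, 19.9 and 21.4 FPKM in PND4 replicates 1 to 4, and 23.0, 14.6, 22.4 and 21.3 FPKM in PND1 replicates 1 to 4. Apart from PND1 replicate 2, which was low, the 8 libraries were close to each other, and the ages overlapped. The means were 20.6 ± 1.15 FPKM at PND4 and 20.4 ± 3.87 at PND1 (SD, n = 4). The log2 difference was 0.036 (95% interval -0.35 to 0.43), close to the median of all kept genes, 0.078. Its sign turned with median-of-ratios scaling, to -0.038, and without PND1 replicate 2, to -0.11.

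**Figure D2:**
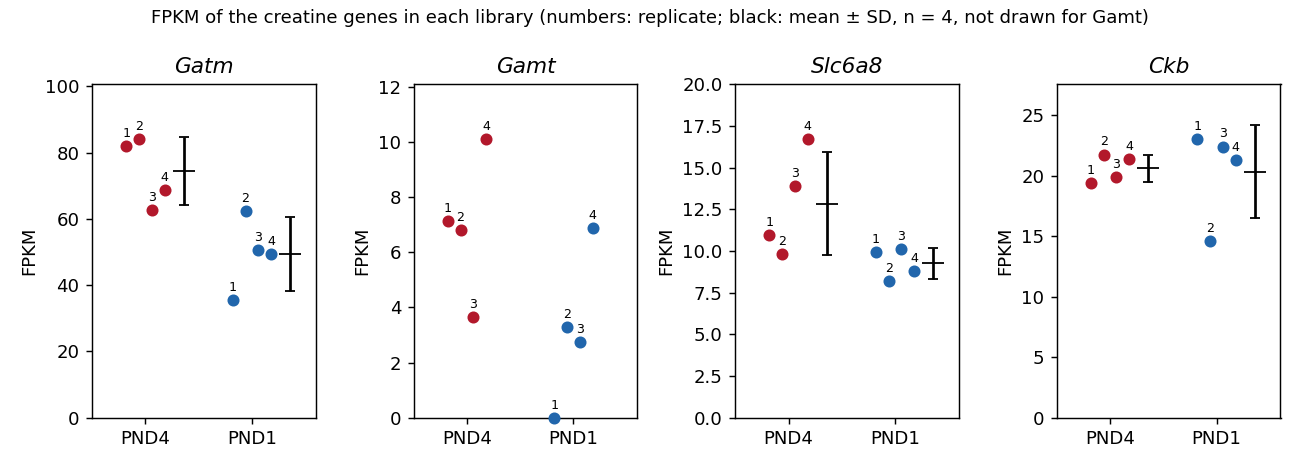
FPKM of Gatm, Gamt, Slc6a8 and Ckb (y axes, linear, from 0) in each library, PND4 left of PND1, with the replicate number above each point and the mean ± SD in black (n = 4; not drawn for Gamt, which is listed at 0 in 1 library). The 4 Gatm values at PND4 sit between 62.8 and 84.0, just above the highest PND1 value of 62.3, and the ages overlap for the other genes.

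The libraries that were high in one of these genes were not high in all of them. PND4 replicates 1 and 2 had the highest Gatm values and the lowest Slc6a8 values of their age. PND1 replicate 2 had the highest Gatm and the lowest Ckb and Slc6a8 values of its age. PND4 replicate 4 had the highest Gamt and Slc6a8 values of all libraries. Gatm thus made up 68.6%, 68.6%, 62.6% and 58.8% of the summed FPKM of the 4 genes in PND4 replicates 1 to 4, and 51.8%, 70.4%, 58.9% and 57.2% in PND1 replicates 1 to 4.

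The spread between libraries of one age was compared with that of genes of like level, those within 0.5 of the gene's mean on the log2(FPKM + 1) scale. The within-age SD of Gatm was 0.27 on that scale, and 69.3% of 807 such genes had a smaller one. That of Gamt was 0.96, and 89.2% of 2502 had a smaller one. Slc6a8, with an SD of 0.24, and Ckb, with 0.21, were steadier than most, with 18.2% of 2457 and 21.7% of 1832 genes below them. These values include the 0 of Gamt in PND1 replicate 1 and the low Ckb value in PND1 replicate 2.

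Markers of other cell types are given as sums of FPKM, since RNA of other cells could carry these transcripts. The 10 listed of 12 oocyte markers summed to 17.8, 44.0, 208 and 40.9 FPKM in PND4 replicates 1 to 4, and to between 12.9 and 57.2 in the PND1 libraries. PND4 replicate 3, with the most oocyte RNA, had the lowest Gatm and the lowest Gamt values of its age. Stroma markers, 9 of 9 listed, summed to between 196 and 256 FPKM at PND4 and between 183 and 200 at PND1, with Lox the most abundant. Among them Dcn ran from 30.3 to 45.4 FPKM at PND4 and from 16.4 to 26.2 at PND1, without overlap. Such a separation was seen in 3.16% of all kept genes, and the ages overlapped for each other stroma marker, Lox included. The part of these markers in the Gatm values was not tested.

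Smooth muscle markers, 5 of 6 listed, summed to between 680 and 1318 FPKM at PND4 and between 846 and 1546 at PND1. Nearly all of each sum came from Tagln, an actin-binding protein gene, and Acta2. The highest sum was that of PND1 replicate 2, the library with the lowest Ckb value. Surface epithelium markers, 6 of 6 listed and led by Krt19, summed to between 183 and 422 FPKM at PND4 and between 96.7 and 339 at PND1, and were lowest in that same library. Their part in the Ckb values was not tested. Immune markers, 3 of 6 listed, summed to between 2.92 and 57.1 FPKM at PND4 and between 8.34 and 23.9 at PND1, and the 3 listed of 7 erythroid markers to between 0.268 and 11.4 at PND4 and between 17.1 and 48.9 at PND1, with no overlap between ages for the erythroid list. Their part in the creatine genes was not tested. The 2 listed of 6 theca and steroidogenic markers stayed at or below 12.6 FPKM and Tubb3, the 1 listed of 6 neural and glial markers, at or below 6.36 FPKM in the 8 libraries. None of 7 skeletal muscle markers, among them the creatine kinase genes Ckm and Ckmt2, and none of 6 endothelial markers were listed. Ckb was therefore the 1 creatine kinase gene of 4 that the table lists.

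The comparison was then widened to genes that supply or use the substrates of creatine synthesis. It also took in other creatine kinases, other solute carriers, and adenylate kinases with mitochondrial nucleotide carriers and porins. Together they came to 86 genes in 6 lists besides the creatine genes themselves. Of these, 54 were listed and 52 passed the filter. In limma on log2(FPKM + 1) with Benjamini-Hochberg adjustment over all 10756 kept genes, 0 of the 52 passed (smallest adjusted p = 0.740). At an unadjusted p under 0.05 there were 11 with higher and 0 with lower PND4 values, beside 437 and 198 of all kept genes, of which 60.3% had a positive difference. All PND4 libraries lay above all PND1 libraries in 10 of the 52, 19.2%, beside 3.16% of all kept genes, and all lay below in 0, beside 1.08%. After median-of-ratios scaling the count was 3 of the 52, 5.77%, beside 1.73% of all kept genes, and those were Aldh18a1, Shmt2 and Cth. The median log2 difference of the 52 was 0.21, beside 0.078 over all kept genes, and 0.13 beside 0.0086 with that scaling. The lists were chosen with earlier results of these data known, so these shares and medians are a description and not independent evidence.

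Mitochondrially encoded transcripts took 29.4%, 23.4%, 22.4% and 22.8% of the listed FPKM in PND4 replicates 1 to 4, and 28.9%, 30.6%, 26.6% and 29.9% in PND1 replicates 1 to 4. Their share was thus lower in PND4 replicates 2 to 4 than in any PND1 library, and its part in the differences of the creatine and related genes was not tested.

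Arginine donates the amidino group, and ornithine leaves the first step as its by-product. Of 23 genes for their supply and use 15 were kept, 11 with positive and 4 with negative differences beside 60.3% positive among all kept genes. In limma 0 passed the test and 4 had an unadjusted p under 0.05, beside 635 of all 10756 kept genes. The median log2 difference was 0.26, beside 0.078 for all kept genes, and 0.16 without PND1 replicate 1. The ornithine decarboxylase gene Odc1 had 239, 260.0, 216 and 234 FPKM in PND4 replicates 1 to 4, and 208, 171, 207 and 149 FPKM in PND1 replicates 1 to 4, so that the ages did not overlap as deposited but did after median-of-ratios scaling (log2 difference 0.38, limma adjusted p = 0.740). The spermidine synthase gene Srm stood at 169 ± 14.8 FPKM at PND4 and 140.5 ± 7.41 at PND1, and Azin1, for an antizyme inhibitor that protects ornithine decarboxylase, at 58.1 ± 27.7 and 76.3 ± 11.5 (SD, n = 4 each). Further genes of this list, chosen after their values were seen, are Aldh18a1, for the first enzyme of proline and ornithine synthesis from glutamate, at 28.2 ± 2.96 FPKM at PND4 and 18.4 ± 2.60 at PND1, and Slc7a3, for a cationic amino acid transporter, at 4.53 ± 3.34 and 0.905 ± 1.30. The ages overlapped for Slc7a3, with 1.54 FPKM in PND4 replicate 1 and 2.82 in PND1 replicate 2. Its values were low, and PND1 replicate 1 listed it at 0. The arginase genes Arg1 and Arg2 were not listed.

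Glycine accepts the amidino group. Of 15 genes for its supply and use 10 were kept, 8 with positive and 2 with negative differences (60.3% positive among all kept genes), with a median log2 difference of 0.31. In limma 0 passed the test and 2 had an unadjusted p under 0.05 (635 of all 10756 kept genes). Shmt2, for the mitochondrial enzyme that makes glycine from serine, had 82.5, 94.3, 91.9 and 106 FPKM in PND4 replicates 1 to 4, and 64.1, 75.7, 78.3 and 71.6 FPKM in PND1 replicates 1 to 4, with no overlap on either scale (log2 difference 0.36, limma adjusted p = 0.740). Slc38a2, for a neutral amino acid transporter, stood at 67.4 ± 8.71 FPKM at PND4 and 60.3 ± 9.90 at PND1. Gcsh, for a carrier protein of the glycine cleavage system, stood at 49.9 ± 8.84 and 39.8 ± 1.45 FPKM. The plasma membrane glycine transporter gene Slc6a9, chosen after its values were seen, stood at 16.0 ± 5.11 FPKM at PND4 and 9.70 ± 3.19 at PND1 (SD, n = 4 each).

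S-adenosylmethionine gives the methyl group in the step of Gamt. Of 17 genes of its cycle 9 were kept, 6 with positive and 3 with negative differences, close to the 60.3% positive among all kept genes. In limma 0 passed the test and 1 had an unadjusted p under 0.05, beside 635 of all 10756 kept genes. The median log2 difference was 0.16, and it was 0.068 without PND4 replicate 2, 0.063 without PND4 replicate 4, 0.039 without PND1 replicate 3, 0.091 without PND1 replicate 4 and 0.089 with median-of-ratios scaling. Ahcy, for the hydrolase that clears S-adenosylhomocysteine, stood at 101.6 ± 8.99 FPKM at PND4 and 97.4 ± 12.8 at PND1. Ahcyl1, for a related protein that regulates ion channels and transporters, stood at 41.4 ± 8.56 and 32.6 ± 3.68 FPKM, and the adenosine kinase gene Adk at 35.2 ± 1.57 and 28.6 ± 4.51 FPKM, with no overlap between ages for Adk as deposited but overlap after median-of-ratios scaling. Cth, for an enzyme that makes cysteine from cystathionine, was the gene at an unadjusted p under 0.05, with 8.06 ± 1.67 FPKM at PND4 and 3.84 ± 1.98 at PND1 (SD, n = 4 each). It was chosen after its values were seen.

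Of 8 other solute carriers related to Slc6a8 or known to carry creatine, carnitine or taurine, 2 were listed and kept, with 0 past the test, 0 at an unadjusted p under 0.05 and a median log2 difference of -0.19. That median was -0.12 without PND4 replicate 1, -0.28 without PND4 replicate 4, -0.33 when PND1 replicate 1 was left out and -0.11 when PND1 replicate 2 was. The taurine transporter gene Slc6a6 stood at 73.8 ± 9.18 FPKM at PND4 and 82.4 ± 12.5 at PND1, and the carnitine transporter gene Slc22a5 at 2.76 ± 1.56 and 3.27 ± 1.06 (SD, n = 4 each). Slc6a6 was thus several times as abundant as Slc6a8 per unit of length in the same libraries. Its log2 difference, -0.15, had the opposite sign to that of Slc6a8, and the difference between the pair was not tested.

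Adenylate kinases, nucleoside diphosphate kinases and the mitochondrial carriers of ADP and ATP share with creatine kinase the work of moving phosphate. The list of 21 genes also held Slc25a3, for a mitochondrial phosphate carrier, and the porin genes Vdac1, Vdac2 and Vdac3. Of the 21 genes 16 were kept, 10 with positive and 6 with negative differences, close to the 60.3% positive among all kept genes. In limma 0 passed the test and 4 had an unadjusted p under 0.05, beside 635 of all 10756 kept genes. The median log2 difference was 0.084, and it was 0.16 without PND4 replicate 1, 0.14 without PND4 replicate 4, 0.17 without PND1 replicate 3, 0.18 without PND1 replicate 4 and 0.036 with median-of-ratios scaling. The ADP/ATP carrier gene Slc25a5 had 473, 484, 497 and 571 FPKM in PND4 replicates 1 to 4, and 449, 418, 409 and 410.5 FPKM in PND1 replicates 1 to 4, with no overlap as deposited but overlap after median-of-ratios scaling (log2 difference 0.26, limma adjusted p = 0.775). The second such carrier, Slc25a4, stood at 143 ± 18.2 FPKM at PND4 and 152 ± 14.6 at PND1, and the nucleoside diphosphate kinase gene Nme2 at 219 ± 39.0 and 227 ± 32.6 (SD, n = 4 each). Reads of Nme2 may be shared with its near-identical paralog Nme1. The porin gene Vdac1, chosen after its values were seen, stood at 150.4 ± 5.70 FPKM at PND4 and 126 ± 13.0 at PND1.

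**Figure D3:**
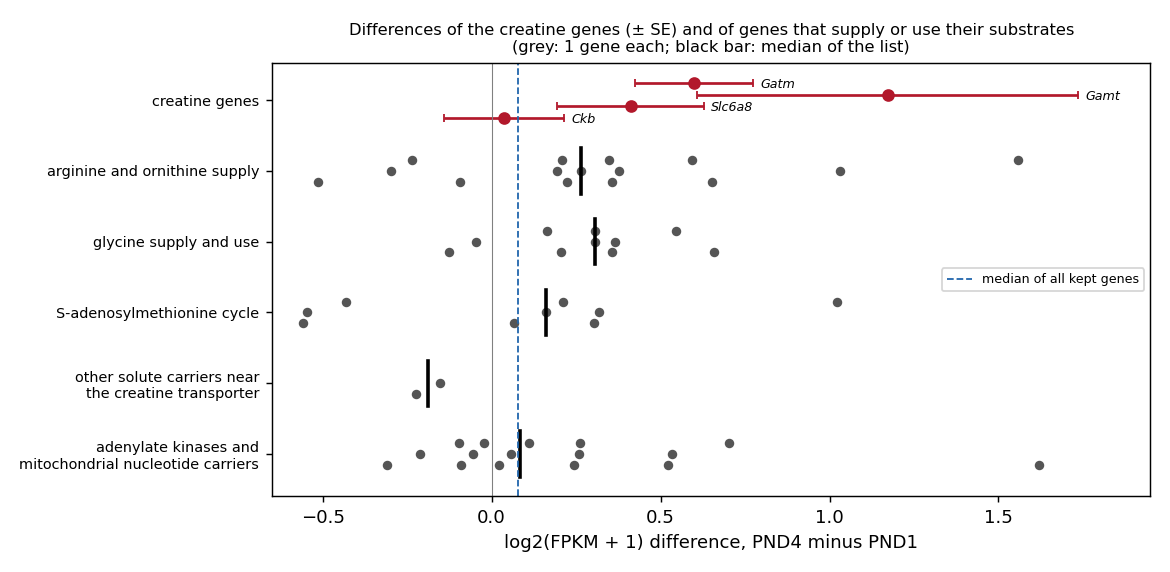
Difference in log2(FPKM + 1), PND4 minus PND1 (x axis), of the 4 listed creatine genes with their SE (red) and of each kept gene of 5 related lists (grey), with the median of each list as a black bar and the median of all kept genes, 0.078, as a dashed line. The arginine and glycine lists have medians of 0.26 and 0.31, the list of adenylate kinases and carriers sits at 0.084, and no gene shown passed the adjusted test.

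The genes most like each creatine gene were sought by Pearson's r over the 8 libraries after each age's own mean was removed, so that the difference between ages played no part. The search covered 4704 or 4705 genes of at least median level, and r over 0.9 was had by 56 genes with Gatm, 51 with Gamt, 10 with Slc6a8 and 25 with Ckb. Gatm was most like Psmd3, for a proteasome subunit (r = 0.998), Prdx4, for a peroxiredoxin of the secretory pathway (r = 0.972), and Cdc40, for a splicing factor (r = 0.966). Gamt was most like Zfp664, Vmp1 and Mdk (r = 0.982, 0.980 and 0.968), the last of which encodes the growth factor midkine. Slc6a8 was most like Pomk, Mfsd5 and Dohh (r = 0.981, 0.958 and 0.941), and Ckb was most like Pkig, Prpf38b and Avpi1 (r = 0.984, 0.982 and 0.965). With 8 libraries and so many genes searched, such values describe these libraries and say nothing of shared function.

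In the authors' deposited table, which gives PND1 over PND4, the fold was 0.665 for Gatm, 0.523 for Gamt, 0.769 for Slc6a8 and 0.990 for Ckb. Values below 1 there mean a higher PND4 level, so the order of the genes by size of difference was the same as above, with Gamt first and Ckb last. Those folds come from the same libraries, so the shared order is not independent evidence. The settings tried for the 4 differences are plotted together.

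**Figure D4:**
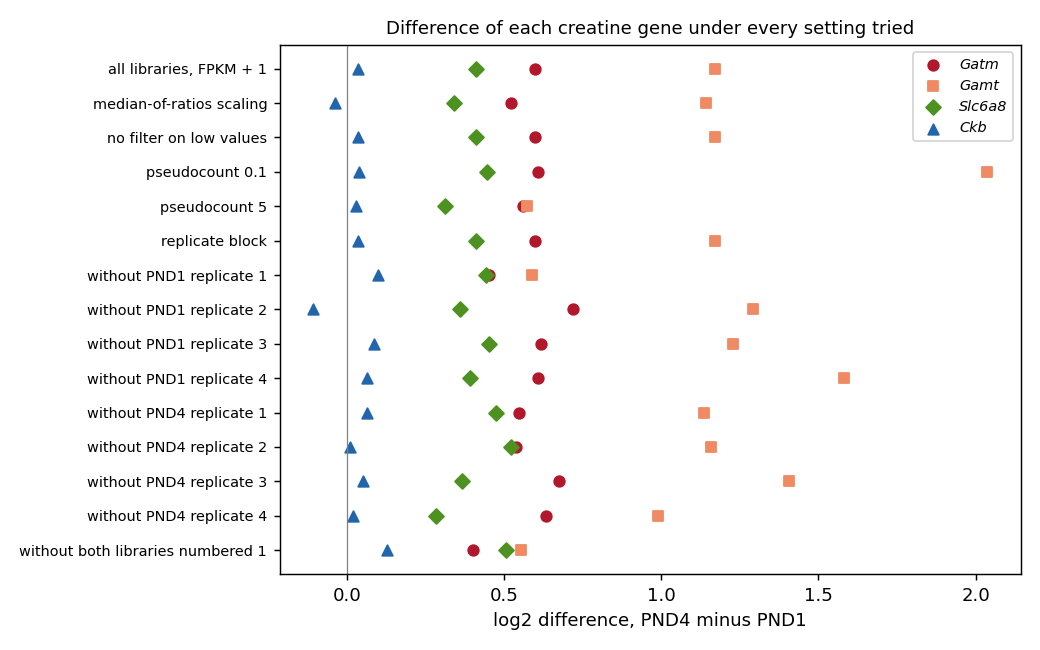
Log2 difference, PND4 minus PND1 (x axis), of Gatm (circles), Gamt (squares), Slc6a8 (diamonds) and Ckb (triangles) with all libraries and under 14 other settings (y axis). Gatm runs from 0.40 to 0.72 and Slc6a8 from 0.28 to 0.52, Gamt runs from 0.55 to 2.04, and Ckb takes both signs, from -0.11 to 0.13.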

How the data were processed

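The submitters' processing notes name Trim Galore, HISAT2 and the build GRCm38. The deposited expression table gives 11783 genes as FPKM, with a column per library, per the file headers. The program behind the FPKM values, its annotation, its use of strand and its filter are not stated there. A second table deposited by the authors holds, for each gene, a fold with its log2 and a p-value with its q-value. Only the fold was used, and the values show that it is PND1 over PND4.

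The genes, the related lists and the tests were chosen with earlier results of these data known. FPKM values were taken as log2(FPKM + 1), and the filter on low values required 1 FPKM or more in 4 or more libraries, which left 10756 genes. The test was limma 3.58.1 under R 4.3.3 (PND4 minus PND1, mean-dependent prior variance, no block, Benjamini-Hochberg adjustment over all kept genes, threshold 0.05). The fit was tested on simulated data with normal noise and no exact zeros or library effects. That simulation does not bear on the zeros or the scaling of these libraries. The creatine genes carry no p-value. Named besides them were, by rule, related genes past the test, the 3 most abundant of each list and the 3 genes most like each creatine gene. Outside that rule, Aldh18a1, Slc7a3, Slc6a9, Cth and Vdac1 were named after their values were seen. All of these had positive differences, and no related gene with a negative difference was added in this way. A search for whole multiples of 1 read among low values put 25.1% to 28.3% within 0.1 of a multiple at the best scale tried, where 20% is expected at any 1 scale. Whole reads could thus not be recovered, and depth is unknown. Positions are those of GENCODE M21 (GRCm38). Alternatives were median-of-ratios scaling, no filter, pseudocounts of 0.1 and 5, a replicate block and leaving out each library. Leaving out both libraries numbered 1 was added after seeing the data.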

Additional observations from a re-analysis of the deposited data

Results flagged for a closer look

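No creatine gene had a library that stood apart from the other 3 of its age by Dixon's criterion (the gap to the nearest library over the range of the group). The same criterion was applied to the marker sums, 26 groups of 4 libraries in all, and was met by 4 sums, where chance gives about 1 in 20 groups. Oocyte markers summed to 208 FPKM in PND4 replicate 3, against at most 44.0 in the other PND4 libraries. The 1 listed neural and glial marker was lowest in that library, at 0.624 FPKM, against at least 3.88. In PND1 replicate 2, granulosa markers summed to 947 FPKM, against at least 1262 in the other PND1 libraries. That gap lay in the 2 keratin genes: Krt18 stood at 378 FPKM there, against 531 to 552 in the other PND1 libraries, and Krt8 at 272, against 392 to 455, while the other 9 listed granulosa markers summed to 297 FPKM, against 289 to 317. Among these markers, Foxl2, Kitl, Fst and Inha had their highest PND1 values in that library. Amhr2 and Wt1 had their lowest PND1 values there, and Wnt4, Nr5a1 and Gata4 lay in between. Smooth muscle markers summed to 1546 FPKM in that library, against at most 941. Nearly all of that sum was Tagln, at 813 FPKM, and Acta2, at 717, while Actg2, Des and Cnn1 stood at 8.98, 4.52 and 3.21. That library had the lowest Ckb value, 14.6 FPKM, and the highest Gatm value of its age, 62.3 FPKM. The part of these sums in the creatine genes was not tested.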

How the results depend on the processing

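Over all kept genes, 0 were called higher and 1 lower at PND4 under each of 14 other settings, and 0 of the 52 related genes were called. The log2 differences of Gatm and Slc6a8 stayed positive under all of them (0.40 to 0.72 and 0.28 to 0.52). Each moved by less than its within-age SD, as did those of Gamt and Ckb. That SD describes single libraries and is larger than the SE of the difference, so it is a wide yardstick. It was 0.27 for Gatm and 0.96 for Gamt, beside SEs of 0.18 and 0.56. The comparison therefore does not show that the sizes of the differences held. With 1 library left out, Gatm ran from 0.45 to 0.72, Gamt from 0.59 to 1.58, Slc6a8 from 0.28 to 0.52 and Ckb from -0.11 to 0.10. Gamt was 0.55 without both libraries numbered 1, a setting chosen after seeing the data. The medians of the 5 related lists with kept genes held their signs under all 14 settings, though not their size. With 1 library left out they ran from 0.16 to 0.35 for arginine, 0.26 to 0.37 for glycine, 0.039 to 0.20 for S-adenosylmethionine, -0.33 to -0.11 for the solute carriers and 0.076 to 0.18 for the adenylate kinases and carriers. Among them only that of the adenylate kinase and carrier list moved by more than its spread, to 0.16 without PND4 replicate 1 and to 0.17 and 0.18 when PND1 replicate 3 or 4 was left out. The cause was not tested.

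The replicate number as a block left the differences as they were (Gatm 0.60) and called 0 genes higher and 1 lower. Deviations of same-numbered libraries correlated at 0.046, -0.0088, 0.032 and 0.12, and not every library correlated best with its own number. The labels give nothing beyond the shared number, so whether these libraries were paired is not known. Depth is unknown, which limits Gamt most, since its values are low and 1 is listed at 0.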
